A study of Mus musculus with 4 samples.

Results

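The 29 genes described here encode the sterol and fatty acid synthesis machinery and its main regulators, and were taken by symbol from the 30905 genes counted in a single-cell RNA data set of mouse prostate. They comprise 5 regulators (Srebf1, Srebf2, Scap, Insig1 and Insig2), 6 enzymes of the mevalonate steps (Acat2, Hmgcs1, Mvk, Mvd, Idi1 and Fdps) and 9 enzymes that lead on through squalene to cholesterol (Fdft1, Sqle, Lss, Cyp51, Msmo1, Nsdhl, Ebp, Sc5d and Dhcr7). The other members are the cholesterol carrier Stard4 and 8 genes of fatty acid synthesis (Acly, Acss2, Acaca, Fasn, Me1, Elovl6, Scd1 and Scd2). Each of the 29 symbols matched a gene in the files, and all 29 passed the filter on low counts in every comparison.

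Dissociated prostates were profiled in droplets (10x Chromium 3' kit, version 3), in 4 groups of mice with 1 library each. The groups were Trp53-deleted ADT mice at 5.5 months, Trp53-deleted mice at 3.5 months, Trp53-intact ADT mice at 5.5 months and Trp53-intact mice at 4 months. Where 4 values are given in a row below, they follow that order. The labels mark the Trp53 deletion PC, read here as restricted to the prostate, and all groups share a further deletion so marked, so none of the libraries is of a normal prostate. Neither the promoter that drives the deletion nor the number of animals behind a library is given in the sources used here. The abbreviation ADT is read here as androgen deprivation therapy. Age moves with ADT, so that within a genotype the effects of ADT, of age and of the single library cannot be told apart.

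Cells make cholesterol and fatty acids from acetyl-CoA, by one chain of enzymes that runs through mevalonate and squalene and by another that builds and desaturates palmitate. The transcription factors encoded by Srebf1 and Srebf2 switch on most genes of both chains. Scap carries these factors out of the endoplasmic reticulum, and the Insig proteins hold them there when sterols are plentiful. Secretory prostate epithelium is known for high lipid synthesis under androgen control, and androgens are known to raise these genes in human prostate cancer cell lines.

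RefSeq promoter windows (GRCm38.p6, 250 bases before to 50 after the start) were found for 23 of the 29 members and are shown for 5 genes that the comparisons below turn on. Hmgcs1 and Insig1 were the members that passed the test as lower with ADT in luminal progenitor-like cells. Cyp51 and Msmo1 are sterol enzymes higher in epithelial-like cells, and Fasn stands for the fatty acid chain. Capitals mark 3 motifs on either strand, namely the sterol regulatory element TCACNCCAC, the CCAAT box (CCAAT, or ATTGG on the other strand) and the E-box CACGTG.
Hmgcs1, chr13:119690101-119690400, plus strand: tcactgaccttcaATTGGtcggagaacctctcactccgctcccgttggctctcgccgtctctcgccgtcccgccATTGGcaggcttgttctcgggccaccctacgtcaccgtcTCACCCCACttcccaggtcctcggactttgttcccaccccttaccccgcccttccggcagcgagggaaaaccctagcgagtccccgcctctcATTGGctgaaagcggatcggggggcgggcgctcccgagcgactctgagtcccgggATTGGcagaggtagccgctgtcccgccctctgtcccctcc
Insig1, chr5:28071162-28071461, plus strand: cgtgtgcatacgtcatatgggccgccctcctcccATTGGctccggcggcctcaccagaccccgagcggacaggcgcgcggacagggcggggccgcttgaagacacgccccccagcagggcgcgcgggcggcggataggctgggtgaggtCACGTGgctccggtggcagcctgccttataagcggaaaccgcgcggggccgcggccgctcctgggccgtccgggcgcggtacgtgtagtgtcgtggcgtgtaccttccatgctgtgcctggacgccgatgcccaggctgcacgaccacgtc
Cyp51, chr5:4104648-4104947, minus strand: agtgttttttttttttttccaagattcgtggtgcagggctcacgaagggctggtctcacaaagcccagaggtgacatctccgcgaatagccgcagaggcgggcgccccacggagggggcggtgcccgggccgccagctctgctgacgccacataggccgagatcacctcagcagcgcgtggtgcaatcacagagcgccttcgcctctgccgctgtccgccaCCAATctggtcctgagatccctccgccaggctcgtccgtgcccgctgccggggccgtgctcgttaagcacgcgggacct
Msmo1, chr8:64733529-64733828, minus strand: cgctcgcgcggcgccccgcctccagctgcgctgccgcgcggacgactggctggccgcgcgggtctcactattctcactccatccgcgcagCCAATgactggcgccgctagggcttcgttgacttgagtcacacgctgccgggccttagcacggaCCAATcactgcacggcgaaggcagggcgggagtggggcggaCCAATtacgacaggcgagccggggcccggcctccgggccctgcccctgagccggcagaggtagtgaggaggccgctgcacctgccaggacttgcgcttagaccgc
Fasn, chr11:120824498-120824797, minus strand: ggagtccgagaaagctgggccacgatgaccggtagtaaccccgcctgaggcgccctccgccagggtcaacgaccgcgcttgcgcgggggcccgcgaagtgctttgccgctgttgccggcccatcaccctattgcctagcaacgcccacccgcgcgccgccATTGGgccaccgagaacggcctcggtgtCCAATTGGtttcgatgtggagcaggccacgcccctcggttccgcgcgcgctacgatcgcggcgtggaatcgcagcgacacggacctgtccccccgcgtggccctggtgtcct
The capitals in the Hmgcs1 window hold 1 sterol regulatory element and 4 CCAAT boxes on the other strand. In the Fasn window a pair of CCAAT boxes on opposite strands overlap, and the Insig1 window holds 1 CCAAT box and 1 E-box. Among the 31 windows of the 23 members, the CCAAT box was present in 20 (64.5%), against 37.4% of all 32851 promoter windows. The E-box was present in 5 of the 31 (16.1%), those of Dhcr7, Insig1, Sc5d and Scap, against 7.15% of all windows. The sterol regulatory element in this spelling was found in 1 of the 31 windows, that of Hmgcs1, and in 1.24% of all windows. Fdft1, Fdps, Sqle, Scd1, Scd2 and Stard4 were not in the promoter table.

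After filtering, 28855 of 36326 barcodes remained, between 5338 and 8810 per library, with medians of 4147 to 5647 UMIs per cell. In the Trp53-deleted library 25.7% of barcodes exceeded the mitochondrial limit, against 8.39% to 13.9% in the others, and no library shared more than 0.745% of its barcode sequences with the others. Cells were clustered without the 29 members and named from marker lists, with "-like" as a reminder that marker RNA is the sole basis of a name. The epithelial-like class, which joins basal-like, luminal-like and luminal progenitor-like clusters, numbered 145, 408, 412 and 1743. Their 7 epithelial markers summed to between 8440 and 10654 CPM (UMIs of the gene per 1000000 UMIs of the class), against 46.0 to 164 in fibroblast-like and 55.5 to 176 in macrophage-like cells, which describes the naming and does not test it, since such markers gave the names. Fibroblast markers summed to 352 to 533 CPM in epithelial-like cells, against 22303 to 30439 in fibroblast-like cells, and macrophage markers to 387 to 1897 CPM, against 27643 to 41286 in macrophage-like cells. Epithelial-like Trp53 stood at 19.2 CPM in Trp53-deleted ADT mice and 18.9 CPM in Trp53-deleted mice, against 95.3 CPM in Trp53-intact ADT mice and 60.2 CPM in Trp53-intact mice. In fibroblast-like cells the 4 Trp53 levels ranged from 44.3 to 69.4 CPM.

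Epithelial-like cells held more RNA of the sterol enzymes than fibroblast-like cells of the same libraries, with the larger fold changes in the steps from squalene synthesis onward. For each class and library the UMIs were added up, and edgeR's quasi-likelihood test with the library as a block was run on 12 sums of 3 classes, with Benjamini-Hochberg adjustment over all 14451 genes tested. At an adjusted p under 0.05, 16 of the 29 members were higher in epithelial-like than in fibroblast-like cells and 2 were lower, where 27.9% of all genes tested were higher and 30.1% lower. The median log2 fold change of the members was 0.89, against -0.053 over all genes tested. Of the 15 sterol enzymes 11 were higher and 0 lower (median 1.54), whereas 2 of the 8 fatty acid genes were higher and 1 lower (median 0.55). All 4 epithelial-like sums lay above all 4 fibroblast-like sums for 16 members, 11 of them sterol enzymes, where 28.0% of all genes tested did so.

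**Figure D1:**
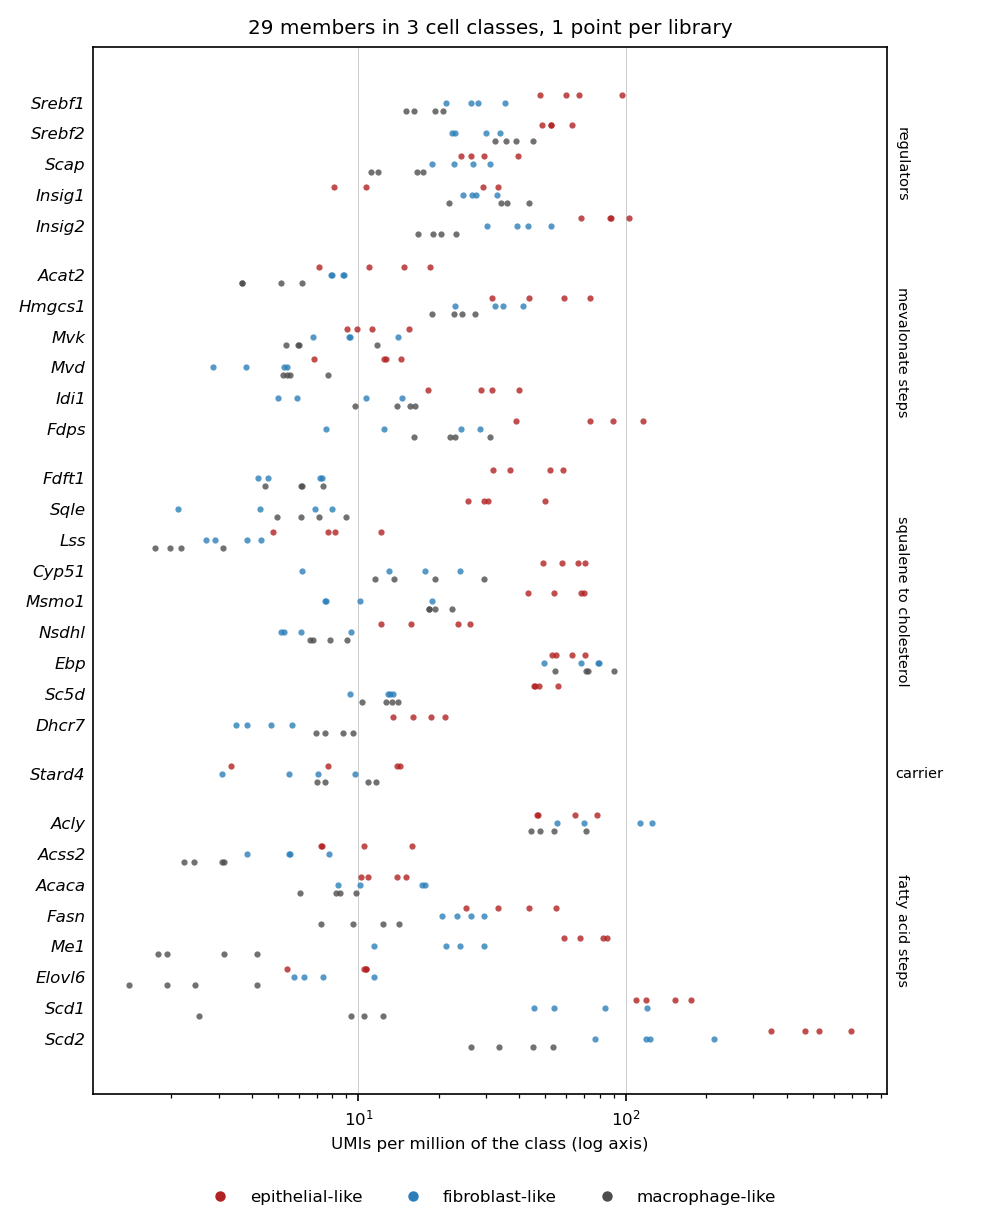
Level of each of the 29 members (CPM, log scale) in epithelial-like, fibroblast-like and macrophage-like cells, with 1 point per library and class. The epithelial-like points of Fdft1, between 31.8 and 58.1 CPM, lie above all points of the other classes, while those of Ebp overlap with them.

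Among the regulators, Srebf1 encodes the factor that favours fatty acid genes. Its level in epithelial-like cells was 67.0, 97.2, 47.6 and 59.6 CPM, against 27.9, 35.2, 26.3 and 21.3 CPM in fibroblast-like cells. The classes did not overlap, and the log2 fold change was 1.09 ± 0.16 (SE; adjusted p = 0.00025, edgeR). Srebf2, whose product favours sterol genes, averaged 54.2 ± 6.18 CPM in epithelial-like cells and 27.3 ± 5.58 CPM in fibroblast-like cells (SD, n = 4 libraries each; log2 fold change 0.80 ± 0.15, edgeR adjusted p = 0.0014). The paralogues of the retention protein differed in direction. Insig2 measured 87.2, 103, 68.3 and 87.8 CPM in epithelial-like cells, against 39.3, 52.3, 30.3 and 43.0 CPM in fibroblast-like cells, a log2 fold change of 0.89 ± 0.13 (edgeR adjusted p = 0.00025). Insig1 measured 10.7, 33.3, 8.08 and 29.3 CPM in epithelial-like cells, against 24.6, 27.5, 26.6 and 33.0 CPM in fibroblast-like cells. The log2 fold change of Insig1 was -0.80 ± 0.30 (edgeR adjusted p = 0.042), yet the classes overlapped, and the low epithelial-like values were those of the ADT libraries. That call was lost without the Trp53-deleted ADT library (adjusted p = 0.12), without the Trp53-intact ADT library (0.26) and without the Trp53-intact library (0.067). Scap averaged 29.9 ± 6.71 CPM in epithelial-like cells and 24.9 ± 5.26 CPM in fibroblast-like cells (SD, n = 4 each; edgeR adjusted p = 0.57).

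In the mevalonate steps 3 of 6 members were higher than in fibroblast-like cells. Fdps, which joins isoprene units into farnesyl diphosphate, measured 89.2, 116, 38.9 and 73.6 CPM in epithelial-like cells, against 28.4, 7.54, 12.5 and 24.2 CPM in fibroblast-like cells. The classes did not overlap, and the log2 fold change was 1.98 ± 0.38 (edgeR adjusted p = 0.0014). Idi1, the isomerase before it, averaged 29.6 ± 8.98 CPM in epithelial-like and 9.07 ± 4.48 CPM in fibroblast-like cells (SD, n = 4 each), a log2 fold change of 1.54 ± 0.33 (edgeR adjusted p = 0.0027). Mvd, the mevalonate diphosphate decarboxylase, had a log2 fold change of 1.23 ± 0.21 (edgeR adjusted p = 0.00065). The earlier enzymes did not pass the test. Hmgcs1, which makes the precursor of mevalonate, measured 43.6, 73.7, 31.7 and 58.9 CPM in epithelial-like cells, against 32.3, 23.0, 34.7 and 41.1 CPM in fibroblast-like cells. These ranges overlapped, with a log2 fold change of 0.44 ± 0.25 (edgeR adjusted p = 0.16). The thiolase Acat2 and the kinase Mvk had log2 fold changes of 0.39 and 0.09.

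From squalene to cholesterol 8 of 9 members were higher than in fibroblast-like cells, with a median log2 fold change of 1.81, and the exception was Ebp. Fdft1, the squalene synthase at the branch into sterols, measured 58.1, 52.0, 36.8 and 31.8 CPM in epithelial-like cells, against 7.2, 4.21, 4.61 and 7.31 CPM in fibroblast-like cells. Every epithelial-like value lay far above every fibroblast-like one. The log2 fold change was 2.73 ± 0.23, or 6.62-fold (edgeR adjusted p = 5.8e-06). Sqle, the squalene epoxidase, measured 30.4, 50, 25.8 and 29.6 CPM in epithelial-like cells, against 7.94, 2.11, 4.29 and 6.87 CPM in fibroblast-like cells. The groups did not overlap, and the log2 fold change was 2.55 ± 0.37 (edgeR adjusted p = 0.00023). Msmo1, a sterol methyl oxidase, measured 54.1, 70.0, 43.2 and 67.8 CPM in epithelial-like cells, against 10.1, 7.54, 7.47 and 18.9 CPM in fibroblast-like cells. Again the groups were apart, with a log2 fold change of 2.28 ± 0.23 (edgeR adjusted p = 1.7e-05).

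Of the other enzymes from squalene to cholesterol, all but Ebp were also higher in epithelial-like than in fibroblast-like cells. Cyp51, the lanosterol demethylase, measured 66.5, 70.1, 57.9 and 49.0 CPM in epithelial-like cells, against 24.0, 6.16, 13 and 17.7 CPM in fibroblast-like cells. Its log2 fold change was 1.94 ± 0.32 (edgeR adjusted p = 0.00051), with no overlap. Sc5d, a sterol desaturase, stood at 55.6, 45.8, 47.3 and 45.4 CPM in epithelial-like cells, close together across the libraries, against 13.1, 13.5, 9.30 and 12.9 CPM in fibroblast-like cells. Dhcr7, the reductase of the last step, averaged 17.3 ± 3.24 CPM in epithelial-like and 4.42 ± 0.966 CPM in fibroblast-like cells (SD, n = 4 each). The log2 fold changes of Sc5d and Dhcr7 were 1.81 ± 0.16 and 1.78 ± 0.19 (edgeR adjusted p = 7.2e-06 and 3e-05). Nsdhl, which removes sterol methyl groups, and Lss, the lanosterol synthase, had log2 fold changes of 1.38 ± 0.18 and 1.02 ± 0.24 (edgeR adjusted p = 0.00012 and 0.005). Ebp, the sterol isomerase, measured 70.3, 62.7, 52.8 and 54.9 CPM in epithelial-like cells, against 78.8, 49.5, 68.2 and 79.2 CPM in fibroblast-like cells. The ranges overlapped, and the log2 fold change was -0.36 ± 0.15 (edgeR adjusted p = 0.056). The cholesterol carrier Stard4 did not differ past the threshold either, at 7.72, 14.3, 3.35 and 13.9 CPM in epithelial-like cells, against 7.06, 5.51, 3.1 and 9.75 CPM in fibroblast-like cells (log2 fold change 0.41 ± 0.33, edgeR adjusted p = 0.32).

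**Figure D2:**
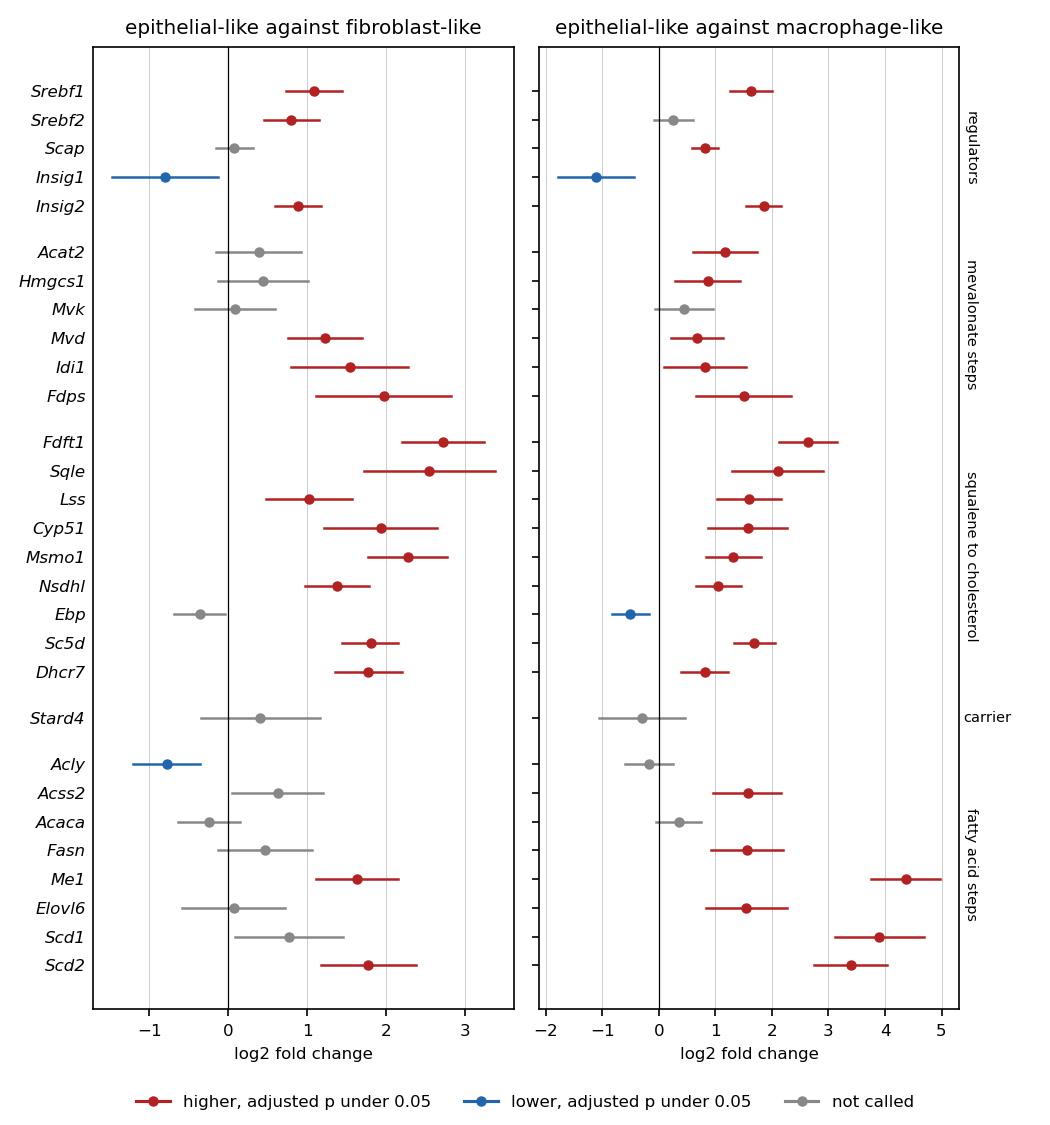
Log2 fold change with its 95% interval for each of the 29 members, epithelial-like against fibroblast-like and epithelial-like against macrophage-like cells (edgeR, library as a block, 4 libraries), with a line at 0. Fdft1 stands at 2.73 and 2.64, and Me1 at 1.63 and 4.37.

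The fatty acid genes differed less from fibroblast-like cells. Me1, the malic enzyme that supplies NADPH, measured 67.5, 82.2, 58.6 and 85.0 CPM in epithelial-like cells, against 21.3, 29.6, 11.4 and 23.9 CPM in fibroblast-like cells. Scd2, a desaturase, measured 468, 694, 350 and 529 CPM in epithelial-like cells, against 119, 214, 76.8 and 123 CPM in fibroblast-like cells. For both genes the classes were apart, with log2 fold changes of 1.63 ± 0.23 and 1.78 ± 0.27 (edgeR adjusted p = 0.00017 and 0.00028). Fasn, the fatty acid synthase, measured 25.2, 54.7, 33.2 and 43.6 CPM in epithelial-like cells, against 20.6, 26.3, 29.4 and 23.3 CPM in fibroblast-like cells. It was higher in epithelial-like cells in each of the 4 libraries, but the ranges overlapped and the log2 fold change was 0.47 ± 0.27 (edgeR adjusted p = 0.16). Acly, which makes acetyl-CoA from citrate, measured 46.6, 78.0, 46.8 and 64.6 CPM in epithelial-like cells, against 69.8, 113, 55.5 and 125 CPM in fibroblast-like cells. It was lower in epithelial-like cells in all 4 libraries, with a log2 fold change of -0.78 ± 0.19 (edgeR adjusted p = 0.0054). The desaturase Scd1 and the acetyl-CoA synthetase Acss2 had log2 fold changes of 0.77 ± 0.31 and 0.63 ± 0.26 (edgeR adjusted p = 0.052 and 0.059). Those of the carboxylase Acaca and the elongase Elovl6 were -0.24 and 0.07.

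These counts moved with the definition of the classes and with the subtraction of neutrophil-like levels. Such levels include RNA that neutrophil-like cells make themselves, so they cannot be read as free RNA alone. With classes from a marker gate on single cells 10 members were higher, and with the same classes but the CPM of neutrophil-like cells of the same library taken off each sum 9 were. Depth moved with the class as well, since median UMIs per cell were 17941, 25557, 23758 and 1807 in epithelial-like cells, against 7049, 6938, 9537 and 5343 in fibroblast-like cells, and its part in the result was not tested.

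Against macrophage-like cells most members of both chains were higher. Of the 29 members 22 were higher and 2 lower in epithelial-like than in macrophage-like cells, where 32.0% of all genes tested were higher and 29.4% lower. The median log2 fold change of the members was 1.31, against 0.032 over all genes tested. Higher levels were called for 13 of 15 sterol enzymes (median 1.18), 6 of 8 fatty acid genes (median 1.56) and 3 of 5 regulators. All 4 epithelial-like sums lay above all 4 macrophage-like sums for 23 members, of which 12 were sterol enzymes and 7 fatty acid genes, where 34.0% of all genes tested did so. With the neutrophil-like CPM taken off, 10 members were higher.

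The fatty acid genes gave the widest gaps. Me1 stood at 4.16, 1.78, 1.92 and 3.14 CPM in macrophage-like cells, far below the epithelial-like values above, with a log2 fold change of 4.37 ± 0.27, or 20.7-fold (edgeR adjusted p = 5.8e-07). Scd1 measured 119, 153, 109 and 176 CPM in epithelial-like cells, against 2.53, 9.36, 12.4 and 10.5 CPM in macrophage-like cells. The log2 fold change of Scd1 was 3.90 ± 0.35, or 14.9-fold (edgeR adjusted p = 6.9e-06), with every epithelial-like value above every macrophage-like one. Scd2 stood at 26.4, 45.0, 53.5 and 33.5 CPM in macrophage-like cells, 10.5-fold below epithelial-like cells (log2 fold change 3.40 ± 0.29, edgeR adjusted p = 4.3e-06). Fasn stood at 14.2, 9.58, 12.4 and 7.27 CPM in macrophage-like cells and did not overlap with epithelial-like cells (log2 fold change 1.56 ± 0.28, edgeR adjusted p = 0.00087). Elovl6 and Acss2 had log2 fold changes of 1.55 ± 0.32 and 1.57 ± 0.27 (edgeR adjusted p = 0.0018 and 0.00063). Acly and Acaca, which act before the synthase, did not pass the test, at -0.17 ± 0.19 and 0.35 ± 0.18.

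Among the sterol enzymes Fdft1 again had the largest fold change, with 6.16, 7.36, 6.10 and 4.48 CPM in macrophage-like cells and a log2 fold change of 2.64 ± 0.23 (edgeR adjusted p = 5.7e-06). Sqle, Sc5d, Lss and Cyp51 followed at 2.1 ± 0.36, 1.69 ± 0.16, 1.60 ± 0.25 and 1.57 ± 0.31, each past the threshold with groups that did not overlap. Hmgcs1 passed the test here, with 24.4, 27.4, 22.8 and 18.9 CPM in macrophage-like cells, all below the epithelial-like values, and a log2 fold change of 0.87 ± 0.26 (edgeR adjusted p = 0.015). That call was lost without the Trp53-intact library (adjusted p = 0.083). The call for Idi1 (0.82 ± 0.32) lay at the threshold and was lost without any one of the 4 libraries, at adjusted p between 0.051 and 0.1, and with the marker gate its direction turned (-0.06, edgeR adjusted p = 0.92). The call for Mvd (0.67 ± 0.21, edgeR adjusted p = 0.018) was lost without the Trp53-deleted or the Trp53-intact library. Ebp was lower in epithelial-like cells, with 90.0, 54.4, 72.5 and 71.3 CPM in macrophage-like cells. Its log2 fold change of -0.50 ± 0.15 (edgeR adjusted p = 0.014) missed the threshold without the Trp53-deleted ADT, the Trp53-intact ADT or the Trp53-intact library.

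Of the regulators, Insig2, Srebf1 and Scap were higher than in macrophage-like cells, by 1.86 ± 0.14, 1.63 ± 0.16 and 0.82 ± 0.11 on the log2 scale (edgeR adjusted p = 1.6e-06, 1.5e-05 and 8.9e-05). Srebf2 did not pass the test (0.26 ± 0.15). Insig1 stood at 34.2, 36.1, 21.8 and 43.6 CPM in macrophage-like cells and was lower in epithelial-like cells of all 4 libraries, with a log2 fold change of -1.11 ± 0.30 (edgeR adjusted p = 0.0089). The Insig1 ranges of the classes overlapped. Stard4 did not differ past the threshold (-0.30 ± 0.34, edgeR adjusted p = 0.47).

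Summed over the 15 sterol enzymes, epithelial-like cells held 576.3, 688.3, 408.6 and 522.2 CPM, against 253.6, 154.1, 188.9 and 264.7 CPM in fibroblast-like and 276.1, 221.3, 224.8 and 204.8 CPM in macrophage-like cells. Summed over the 8 fatty acid genes they held 754.2, 1099, 630.4 and 930.1 CPM, against 297.3, 533.9, 260.9 and 398.3 CPM in fibroblast-like and 116.2, 151.3, 141.2 and 109.7 CPM in macrophage-like cells. In both sums every epithelial-like library lay above every library of the other classes. The fatty acid gap rested largely on Scd1 and Scd2. Without them the other 6 genes summed to 167.4, 251.0, 170.5 and 225.3 CPM in epithelial-like cells, against 133.1, 200.5, 130.4 and 191.7 CPM in fibroblast-like and 87.24, 96.96, 75.28 and 65.75 CPM in macrophage-like cells. That sum was still higher in epithelial-like cells of each library, but its ranges overlapped with those of fibroblast-like cells. The order of fibroblast-like and macrophage-like cells differed between the chains, with overlapping sterol sums and separate fatty acid sums. A collagen-rich cluster of 611 cells of the Trp53-deleted ADT library was kept apart from the fibroblast-like class. Its sterol enzymes summed to 723 CPM, above the 576.3 CPM of epithelial-like cells of that library. Its fatty acid genes summed to 460 CPM, below their 754.2 CPM.

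Within the epithelium, luminal progenitor-like cells carried higher sums than basal-like cells. Their sterol enzymes summed to 591.9, 747.5, 436.0 and 552.2 CPM, against 361.0, 286.8, 318.3 and 372.6 CPM in basal-like cells, which numbered 21, 85, 115 and 142. The fatty acid genes summed to 780.5, 1151, 706.9 and 1049 CPM in luminal progenitor-like cells and to 436.6, 802.3, 374.9 and 475.1 CPM in basal-like cells. Luminal progenitor-like cells were higher in each library for both sums, and their sterol sums did not overlap with those of basal-like cells. Some members ran the other way. Acaca measured 10.0, 14.7, 11.7 and 9.11 CPM in luminal progenitor-like cells, against 13.8, 21.1, 21.9 and 20.1 CPM in basal-like cells, and Elovl6 measured 10.3, 8.90, 9.02 and 3.84 CPM, against 17.2, 24.3, 16.5 and 16.0 CPM. Both were higher in basal-like cells in all 4 libraries, though in the Trp53-deleted ADT library on 4 UMIs of Acaca and 5 of Elovl6. Insig1 lay between 6.40 and 14.0 CPM in the basal-like sums, with 3 UMIs in the Trp53-deleted ADT library. The luminal progenitor-like Insig1 values with ADT, given below, lie in the same range. Luminal-like cells were nearly absent with ADT (6 and 39 cells, against 71 and 1182 without) and shallow, and their members were not compared further.

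**Figure D3:**
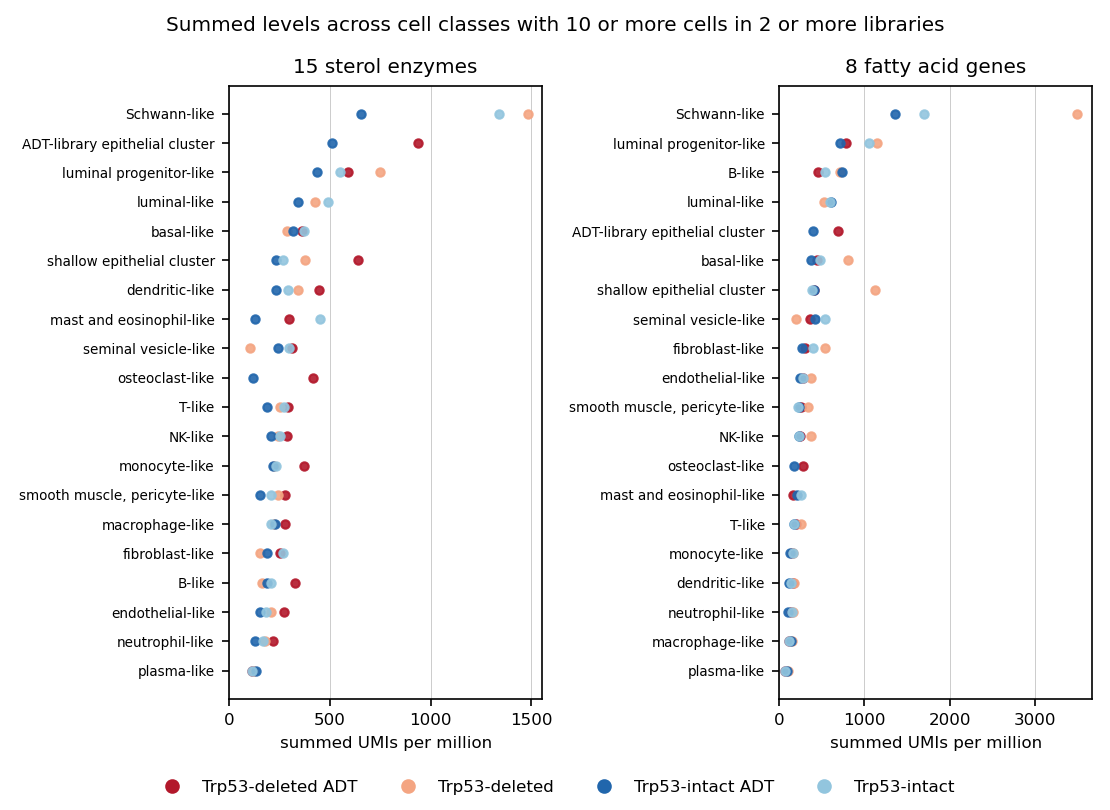
Summed CPM of the 15 sterol enzymes and of the 8 fatty acid genes by class, with 1 point per library of at least 10 cells. Schwann-like cells reach 1483 CPM for sterol enzymes and 3503 CPM for fatty acid genes, above the epithelial-like classes.

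Epithelial-like cells were not the highest class. Among 17 classes with 10 or more cells in at least 3 libraries, Schwann-like cells had the highest median level for 18 of the 29 members, luminal progenitor-like cells for 3 and B-like cells for 2. Schwann-like cells are glia that wrap nerves and build lipid-rich myelin. They numbered 25 in the Trp53-deleted, 84 in the Trp53-intact ADT and 157 in the Trp53-intact library. Their sterol enzymes summed to 1483, 652.5 and 1340 CPM in these libraries, and their Hmgcs1 alone to 598, 169 and 358 CPM. Some of the 18 rest on few UMIs, as with Lss at 2, 1 and 12 and Mvk at 1, 5 and 12 UMIs. The Trp53-deleted ADT library held 5 Schwann-like cells and was left out. The share of all genes that are highest in Schwann-like cells was not computed, so the count of 18 has no background. Scd1 was highest in B-like cells, with a median of 447 CPM, and Me1 in luminal progenitor-like cells, with a median of 80.95 CPM.

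Of 42 other genes of the pathways, 40 were tested. Against fibroblast-like cells 16 were higher and 13 lower, with a median log2 fold change of 0.17, and against macrophage-like cells 13 were higher and 12 lower, with a median of -0.09. The counts against macrophage-like cells are near the shares of all genes given above. In the rest of sterol synthesis, Tm7sf2, a sterol reductase, was higher than in fibroblast-like cells (2.0 on the log2 scale), whereas Hsd17b7 and Lbr were lower (-1.16 and -0.65). Among NADPH suppliers, 3 of 3 were higher than in fibroblast-like cells (Idh1 2.02, Pgd 1.39 and G6pdx 0.90), but only Idh1 (2.23) was higher than in macrophage-like cells. In the other fatty acid genes 7 of 17 were higher and 4 lower than in fibroblast-like cells, led by the elongase Elovl7 (5.93) and the synthetase Acsl3 (1.88) and, on the lower side, by the desaturase Fads1 (-2.65) and the transcription factor Mlxipl (-2.31). Against macrophage-like cells 7 were higher and 5 lower, with Elovl7 at 5.83, Thrsp at 3.75 and Fads1 at -3.16. Genes of sterol sensing, esterification and efflux went the other way. Of 8 tested, 5 were lower than in fibroblast-like cells and 6 lower than in macrophage-like cells, among them the liver X receptor gene Nr1h3 (-4.71 and -3.33), the esterifying enzyme Soat1 (-2.13 and -3.73) and Apoe (-2.29 and -5.29), which is also in the macrophage marker list.

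ADT was compared within a class, with the Trp53 status as a covariate, on 4 sums that leave 1 residual degree of freedom. In epithelial-like cells most members were lower with ADT, but few passed the test. That class leaves out an epithelial cluster seen almost only with ADT, so the direction holds for the cells kept. The values of that cluster are given below. Of 29 members 0 were higher and 1 lower at an adjusted p under 0.05 (edgeR), where 1.25% of all genes tested were higher and 1.7% lower. At an unadjusted p under 0.05, 16 members passed, where 14.9% of all genes tested did so. Negative fold changes were found for 23 of 29, where 50.5% of all genes tested were negative. The median was -0.48 on the log2 scale, against -0.005 over all genes tested. The gene called was Insig1, with a log2 fold change of -1.74 ± 0.21 (edgeR adjusted p = 0.011). Basal-like cells alone did not share this direction in both genotypes, and they were not tested. Their Insig1 measured 10.3 CPM (3 UMIs) with ADT and 6.4 CPM without in Trp53-deleted mice. In Trp53-intact mice it measured 7.63 CPM with ADT and 14.0 CPM without.

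Luminal progenitor-like cells, which all libraries hold in number (118, 252, 258 and 419) at medians of 22668.5 to 40068.5 UMIs, gave a similar list. They supplied 3701510 of 4013514, 11916432 of 13770692, 10535428 of 13742102 and 19542535 of 25214544 epithelial-like UMIs. The epithelial-like and luminal progenitor-like fits thus share most of their counts. Here 0 members were higher and 2 lower with ADT, where 1.72% of all genes tested were higher and 1.98% lower, and 16 passed unadjusted, where 17.8% of all genes tested did so. Insig1 measured 10.5 CPM in the Trp53-deleted ADT and 37.1 CPM in the Trp53-deleted library, and 8.07 CPM in the Trp53-intact ADT and 32.0 CPM in the Trp53-intact library. Both ADT values lay far below both values without ADT, and the log2 fold change was -1.91 ± 0.19 (edgeR adjusted p = 0.011). Hmgcs1 measured 44.3 CPM in the Trp53-deleted ADT and 80.0 CPM in the Trp53-deleted library, and 31.2 CPM in the Trp53-intact ADT and 63.0 CPM in the Trp53-intact library. It too was apart, with a log2 fold change of -0.93 ± 0.16 (edgeR adjusted p = 0.041).

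Both calls were lost under 2 alternatives. With doublet-scored cells kept, the values were of like size, -1.67 for Insig1 and -1.04 for Hmgcs1 (edgeR adjusted p = 0.25 for both). With the neutrophil-like CPM taken off, the Hmgcs1 value was -1.13, and 0 Insig1 UMIs were left in both ADT libraries, against 48 in the Trp53-deleted and 429 in the Trp53-intact library (edgeR adjusted p = 0.55 for both). In all epithelial-like cells the Insig1 value was -1.54 with doublet-scored cells kept, -0.46 with a marker gate in place of clusters, and -1.14 with an epithelial cluster found in the ADT libraries counted in (adjusted p = 0.29, 1.0 and 0.3). Secretory luminal markers moved with ADT as well. In luminal progenitor-like cells their 8 genes summed to 1.89 CPM in the Trp53-deleted ADT and 859 CPM in the Trp53-deleted library, and to 1.61 CPM in the Trp53-intact ADT and 4663 CPM in the Trp53-intact library. Of these, 2 of 8 had a UMI with ADT and 8 of 8 without, and Msmb, Tgm4, Defb50 and Sbp were at 0 in both ADT libraries. Their part in the result was not tested.

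**Figure D4:**
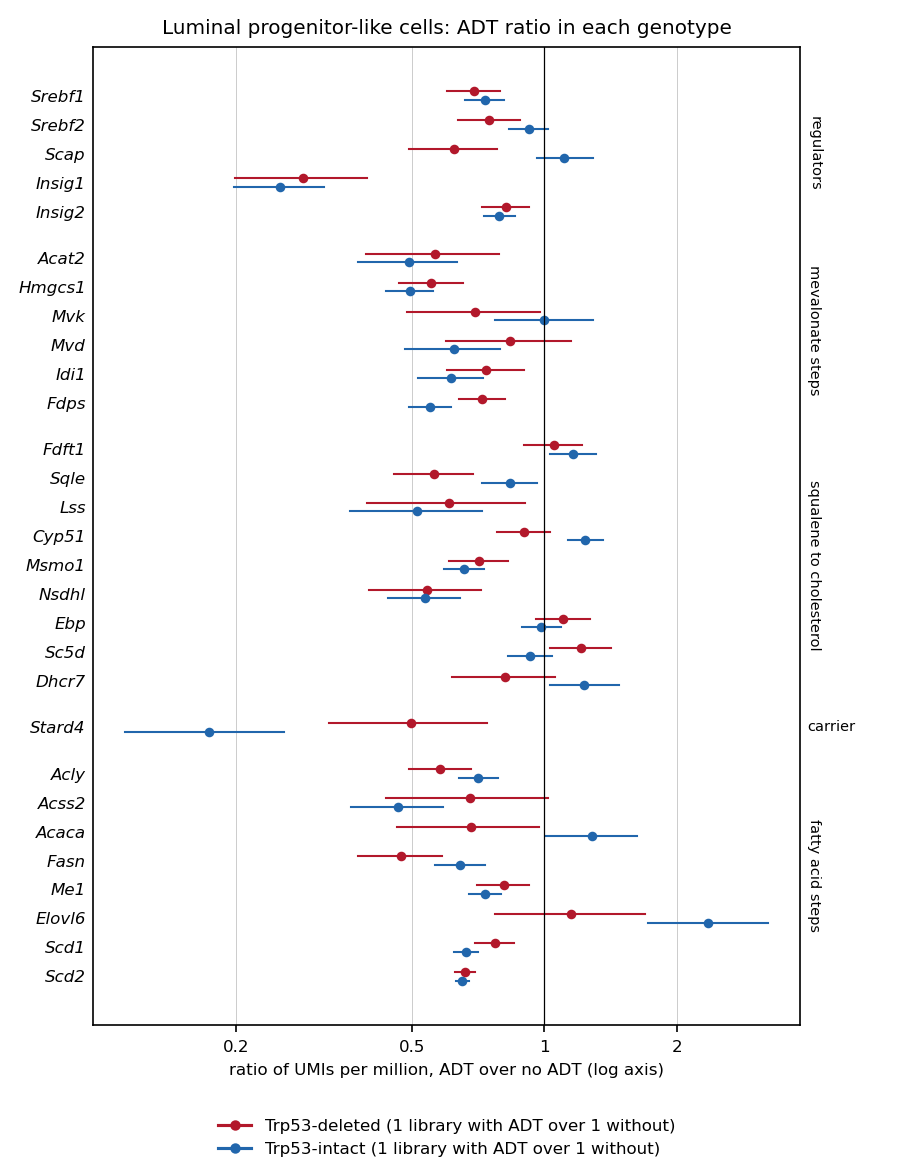
Ratio of CPM with ADT to CPM without ADT (log scale) for each of the 29 members in luminal progenitor-like cells, in Trp53-deleted and in Trp53-intact mice, with exact 95% intervals that cover counting error only. Insig1 lies at 0.284 and 0.252, and Elovl6 at 1.15 and 2.35.

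Single libraries show the size of the change in each genotype, without a replicate and so without a test. In Trp53-deleted mice 10 of 29 members were at least 1.5-fold lower with ADT and 0 at least 1.5-fold higher, where 7.61% of all genes measured were lower and 5.89% higher by that size. In Trp53-intact mice 8 were lower and 1 higher, where 5.34% were lower and 6.03% higher. The ratio was below 1 in both genotypes for 20 members, above 1 in both for 2 and opposite for 7, where 31.5% of all genes measured in both were below 1 in both. Its interval lay below 1 in both genotypes for 17, which were 8 of 15 sterol enzymes, 5 of 8 fatty acid genes, 3 regulators and Stard4, where 11.9% of all genes measured had such an interval.

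Insig1 had ratios of 0.284 (95% interval 0.199 to 0.395, counting error only) in Trp53-deleted and 0.252 (0.198 to 0.316) in Trp53-intact mice. Hmgcs1 had ratios of 0.554 (0.467 to 0.654) and 0.496 (0.438 to 0.56) in the same order. Stard4 measured 7.83 CPM in the Trp53-deleted ADT and 15.7 CPM in the Trp53-deleted library, and 2.56 CPM in the Trp53-intact ADT and 14.8 CPM in the Trp53-intact library. It was lower with ADT in both genotypes, but the fit did not call it (-1.77 ± 0.43, edgeR adjusted p = 0.10). In the same cells Nsdhl had ratios of 0.541 and 0.535 and Acat2 of 0.564 and 0.493, both near the threshold of the fit (edgeR adjusted p = 0.064 and 0.099).

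The steps after squalene did not move as a block. Fdft1 measured 60.5 CPM in the Trp53-deleted ADT and 57.7 CPM in the Trp53-deleted library, and 42.6 CPM in the Trp53-intact ADT and 36.7 CPM in the Trp53-intact library. Its ratios were 1.05 (0.899 to 1.22) and 1.16 (1.03 to 1.31). Cyp51 had ratios of 0.9 and 1.24, Sc5d of 1.21 and 0.926, Ebp of 1.1 and 0.983, and Dhcr7 of 0.813 and 1.23. These enzymes thus stood at or above 1 in at least 1 genotype, while Sqle (0.562 and 0.835), Lss (0.607 and 0.515), Msmo1 (0.71 and 0.657) and Nsdhl lay below 1 in both. The mevalonate enzymes Idi1 (0.738 and 0.614) and Fdps (0.723 and 0.55) were also lower in both.

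Of the fatty acid genes, Fasn measured 25.7 CPM in the Trp53-deleted ADT and 54.3 CPM in the Trp53-deleted library, and 29.9 CPM in the Trp53-intact ADT and 46.4 CPM in the Trp53-intact library. Both ADT values lay below both others, and the fit just missed the threshold (-0.84 ± 0.16, edgeR adjusted p = 0.054). Scd2 measured 479 CPM in the Trp53-deleted ADT and 725 CPM in the Trp53-deleted library, and 392 CPM in the Trp53-intact ADT and 602 CPM in the Trp53-intact library. Its ratios were alike, 0.66 (0.627 to 0.695) and 0.652 (0.63 to 0.676). Acly (0.581 and 0.708), Scd1 (0.773 and 0.664) and Me1 (0.809 and 0.734) were lower in both genotypes. Elovl6 was the fatty acid gene higher in both, at 1.15 (0.775 to 1.69) and 2.35 (1.72 to 3.22), from low levels of 3.84 to 10.3 CPM. Acaca was opposite, at 0.681 and 1.28.

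**Figure D5:**
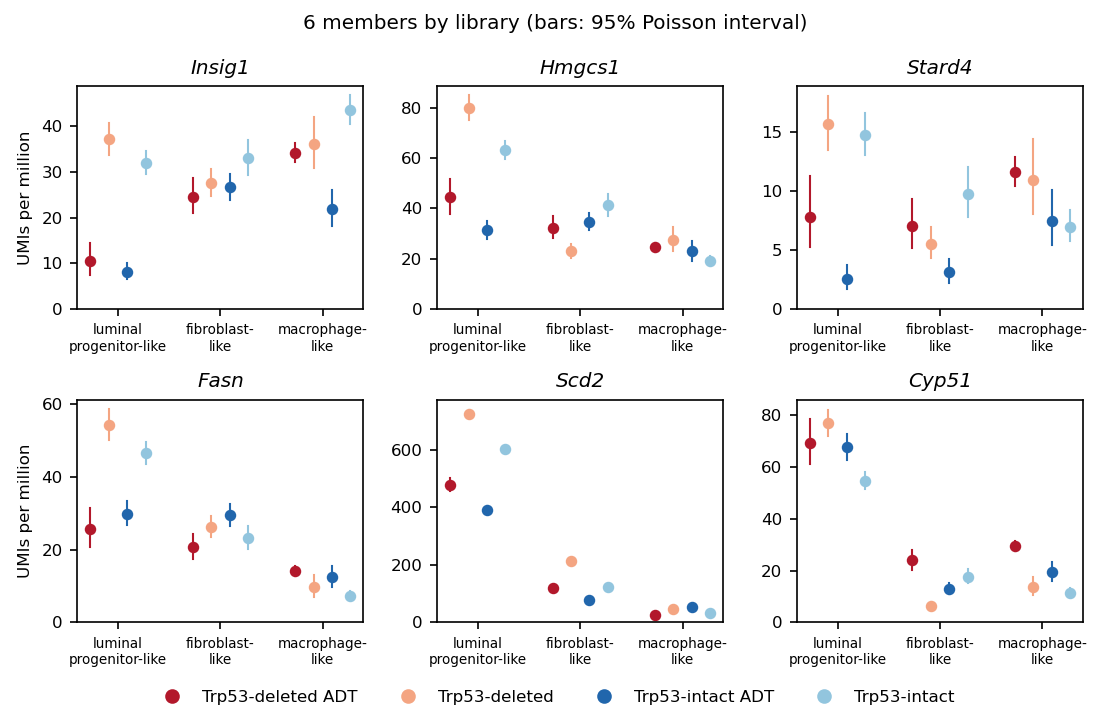
Level (CPM) of Insig1, Hmgcs1, Stard4, Fasn, Scd2 and Cyp51 in luminal progenitor-like, fibroblast-like and macrophage-like cells of the 4 libraries, with exact 95% Poisson intervals for counting error. In luminal progenitor-like cells Insig1 stands at 10.5 and 8.07 CPM with ADT, against 37.1 and 32.0 CPM without.

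ADT was also tested in fibroblast-like and macrophage-like cells, where no member passed in the filtered edgeR fit. In fibroblast-like cells 0 members were called higher and 0 lower (edgeR; 3 passed unadjusted, and DESeq2 called 0), where 0.141% of all genes tested were higher, 0.528% lower and 7.64% past the unadjusted threshold. The fatty acid genes had the larger negative values there, with Scd1 at -1.02 ± 0.36, Acly at -0.93 ± 0.37, Me1 at -0.77 ± 0.35 and Scd2 at -0.76 ± 0.37 (edgeR adjusted p = 0.39, 0.5, 0.64 and 0.69). The single-library intervals lay below 1 in both genotypes for these 4 and Insig2, or 5 members, where 8.16% of all genes measured did so. In macrophage-like cells 0 were called higher and 0 lower (edgeR; 1 passed unadjusted, and DESeq2 called 0), where 0.0318% were higher, 0.119% lower and 12.6% past the unadjusted threshold. Here the intervals lay above 1 in both genotypes for 3 members, Fdps, Cyp51 and Fasn, where 10.3% of all genes measured did so. With no filter on low counts Cyp51 was called higher with ADT in macrophage-like cells (0.96, edgeR adjusted p = 0.017). Different clusters held most of these classes, since fibroblast cluster 9 had 428 and 945 cells with ADT and cluster 5 had 1111 and 1012 without, and macrophage cluster 17 had 2084 of its 2427 cells in the Trp53-deleted ADT library. Whether the ADT effect differed between classes was tested directly, by the interaction of class and ADT over the 12 sums. Between epithelial-like and fibroblast-like cells 0 members were called (edgeR; 3 unadjusted), where 0.0484% of all genes tested were higher, 0.0138% lower and 9.07% past the unadjusted threshold. The Insig1 interaction was -1.51 ± 0.32 on the log2 scale, with an edgeR adjusted p of 0.19. Between epithelial-like and macrophage-like cells 0 were called (edgeR; 4 unadjusted), where 0.0208% were higher, 0.0277% lower and 11.4% past the unadjusted threshold. Fasn and Insig1 had interactions of -1.51 ± 0.29 and -1.28 ± 0.32 (edgeR adjusted p = 0.13 and 0.2). DESeq2 called 1 member lower in each contrast, Insig1 against fibroblast-like cells (-1.49, DESeq2 adjusted p = 0.048) and Fasn against macrophage-like cells (-1.48, DESeq2 adjusted p = 0.016). With no filter on low counts edgeR called Insig1 against fibroblast-like cells (-1.59, adjusted p = 0.0033), and Fasn (-1.62, 0.0033), Insig1 (-1.39, 0.017) and Stard4 (-1.7, 0.033) against macrophage-like cells. The call of a difference between classes thus depended on the filter and the tool.

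With Trp53 deletion no member was called in the filtered edgeR fits. In epithelial-like cells 0 members were called in Trp53-deleted against Trp53-intact libraries (edgeR; 4 passed unadjusted, and DESeq2 called 0), where 0.00733% of all genes tested were higher, 0.125% lower and 6.72% past the unadjusted threshold. In luminal progenitor-like cells 0 were called (edgeR; 5 unadjusted, DESeq2 0), where 0.00772% were higher, 0.0695% lower and 7.2% past the unadjusted threshold. All 15 sterol enzymes had positive fold changes in both fits, with medians of 0.36 and 0.33 on the log2 scale, where 50.7% and 51.3% of all genes were positive, with medians of 0.004 and 0.008, while the fatty acid genes had medians of -0.03 in both. The largest was that of Fdps, at 0.83 ± 0.21 in epithelial-like and 0.89 ± 0.18 in luminal progenitor-like cells (edgeR adjusted p = 0.37 and 0.31). Most epithelial-like UMIs came from luminal progenitor-like cells, so these fits are not independent. With no filter on low counts Fdps was called in luminal progenitor-like cells (0.86, edgeR adjusted p = 0.029), and Scd1 was called lower in macrophage-like cells (-1.3, edgeR adjusted p = 0.048). In fibroblast-like cells 0 were called (edgeR; 0 unadjusted, DESeq2 0), where 0.0521% were higher, 0.0818% lower and 5.57% past the unadjusted threshold. In macrophage-like cells 0 were called (edgeR; 1 unadjusted, DESeq2 0), where 0.0239% were higher, 0.0637% lower and 6.29% past the unadjusted threshold. In comparisons between classes the library is a block, so the p-values rest on how class differences vary between libraries. Within a class they rest on how far the libraries depart from additive effects of Trp53 status and ADT. In both, edgeR moderates the variance of a gene with information shared across genes. The number of animals behind a library is not given, so no p-value measures the spread between mice of a group.

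One epithelial cluster kept apart from the classes came almost entirely from the ADT libraries, with 138 cells in the Trp53-deleted ADT, 2 in the Trp53-deleted and 44 in the Trp53-intact ADT library. In these ADT libraries the epithelial-like class numbered 145 and 412 cells. The sterol enzymes of the cluster summed to 938.9 CPM in the Trp53-deleted ADT and 512.3 CPM in the Trp53-intact ADT library. Luminal progenitor-like cells of these libraries held 591.9 and 436.0 CPM, and the highest epithelial-like sum of any library was 688 CPM. In the cluster Fdps stood at 300 and 166 CPM, against 92.1 and 40.8 CPM in luminal progenitor-like cells. Stard4 stood at 62.8 and 35.3 CPM, against 7.83 and 2.56 CPM. Scd1 went the other way, at 36.4 and 2.42 CPM, against 128 and 134 CPM. These values have no counterpart without ADT and were not tested.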

How the data were processed

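The authors deposited raw UMI counts in 1 matrix of genes by barcodes. Cell Ranger and mm10 are named in the submitters' processing notes, and the values are whole numbers that were not normalised. The notes give version 2.1.1 and the matrix header 3.1.0, and the difference could not be settled. A deposited list of barcode suffixes gave the library of each cell. A deletion shared by all groups and a result of the other pathway genes are not reported here.

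Barcodes below 500 UMIs or 200 genes, or above 20% mitochondrial UMIs, were left out. The automatic Scrublet threshold marked few cells, so 2310 top-scoring cells were left out instead. The expected doublet fraction of a library was 0.008 for each 1000 barcodes that it held. Counts scaled to 10000 per cell gave 2000 variable genes without the 29 members, 40 components, 20 neighbours and 37 Leiden clusters at resolution 1 (scanpy 1.11.5), of which 8 stayed unnamed. The epithelial cluster of the ADT libraries, a collagen-rich cluster with over 95% of cells from 1 library and a shallow epithelial cluster were kept apart after they were seen. Monocyte markers were not counted against a macrophage name.

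UMI counts were summed per class and library and given as CPM with exact 95% Poisson intervals, and ratios of single libraries have exact conditional binomial intervals. Log2 ratios of single libraries used a pseudocount of 5 CPM, and genes counted as measured there had at least 20 UMIs over both libraries. Intervals cover counting error only. Tests were edgeR 4.0.16 quasi-likelihood fits with TMM and filterByExpr in R 4.3.3, adjusted by Benjamini-Hochberg over all genes tested, checked on simulated data with known answers. DESeq2 1.42.0, no TMM, no filter, no library block, other class definitions and leaving out each library were tried. Each library gives a sum to all 3 classes, so the library block pairs the classes by design. All 29 members are reported, and of 42 other pathway genes up to 3 with the largest fold change each way per list past the threshold are named. The members and lists were chosen with earlier results of these data known. Promoters came from RefSeq on GRCm38.p6.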

Additional observations from a re-analysis of the deposited data

Results flagged for a closer look

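For each of the 29 members the log2 ratio of epithelial-like to fibroblast-like and to macrophage-like CPM was compared across the 4 libraries, and in 3 of the 58 groups 1 library lay far from the others, where chance gives about 1 in 20. The Fdps ratio of epithelial-like to fibroblast-like cells was 3.28 in the Trp53-deleted library, against 1.33 to 1.5 in the others. The Ebp ratio of epithelial-like to macrophage-like cells was 0.19 in the Trp53-deleted library, against -0.42 to -0.34 in the others. The Scd2 ratio of epithelial-like to macrophage-like cells was 2.6 in the Trp53-intact ADT library, against 3.8 to 3.91 in the others.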

How the results depend on the processing

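Counts of members called changed with how cells were assigned, with the subtraction of neutrophil-like CPM, with the filter and with TMM. Of the 16 higher in epithelial-like than in fibroblast-like cells, 10 were called with a marker gate on single cells and 9 with neutrophil-like CPM taken off, and of the 22 higher than in macrophage-like cells 10 were called with neutrophil-like CPM taken off. The 2 lower than in fibroblast-like cells became 1 with no TMM factors, no filter on low counts, neutrophil-like CPM taken off, luminal-like cells left out, the epithelial cluster of the ADT libraries counted or the strict macrophage naming, and 0 with doublet-scored cells kept. The 2 lower than in macrophage-like cells became 1 with no TMM factors, neutrophil-like CPM taken off, the collagen cluster counted or the strict naming. Without the library block that pairs the classes, 1 member was lower than in each of the other classes, and the counts of higher calls stayed within 1.5 times. Leaving out each library in turn gave 16 to 18 higher and 1 to 3 lower against fibroblast-like cells, and 19 to 22 higher and 0 to 2 lower against macrophage-like cells.

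For the ADT interaction, lower calls went to 1 with DESeq2 in both contrasts, and with no filter to 1 against fibroblast-like and 3 against macrophage-like cells. In epithelial-like cells the 1 lower with ADT became 5 with no filter, 2 without luminal-like cells, and 0 with doublet-scored cells kept, the marker gate, neutrophil-like CPM taken off or the epithelial cluster of the ADT libraries counted. In luminal progenitor-like cells the 2 became 5 with no TMM factors, 8 with no filter, and 0 with doublet-scored cells kept or neutrophil-like CPM taken off. With no filter, 1 member each was called higher with Trp53 deletion in luminal progenitor-like cells, higher with ADT in macrophage-like cells and lower with Trp53 deletion in macrophage-like cells. The median log2 ADT ratio of the 15 sterol enzymes in epithelial-like cells of Trp53-intact mice was -0.43, and -0.63 with a pseudocount of 1 CPM. Idi1 against macrophage-like cells reversed with the marker gate, at -0.06 (adjusted p = 0.92). The cause of these shifts was not tested. Leaving out a library was not run for ADT and Trp53 within a class, where it leaves no residual degree of freedom. The marker gate, the collagen cluster and the strict naming change which cells are counted, and the last was, with the counting of the ADT and collagen clusters, chosen after seeing the data. Shallow luminal-like cells and small classes limit precision.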
